A study of Homo sapiens with 36 samples.

Results

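The comparison described here sets clone 5 against clone 4 of a HaloTag tagging library while both were exposed to HyT36. It rests on 6 of the 36 samples of the series, 3 bulk RNA libraries of each clone. HEK 293 is an established human cell line of embryonic kidney origin. HaloTag is a tag protein that forms a covalent bond with its ligands, and hydrophobic ligands such as HyT36 are used to make HaloTag fusion proteins unstable. The 4 groups of bulk libraries were HEK 293 clone 4 with DMSO, the vehicle, clone 4 with HyT36 at 25 µM, clone 5 with DMSO and clone 5 with HyT36 at 25 µM, with 3 libraries each. All 4 groups descend from cells that received a guide library and a tag donor, and each clone is a single clone, so a clone difference and a difference between tagged proteins cannot be told apart. No untagged cells enter the comparison, and neither the exposure time of the bulk cultures nor the protein tagged in each clone could be read from the labels. The members were the human gene entries of the count table on an autosome: 13541 of the 14892 genes that passed the filter on low counts. Gene counts in the 6 HyT36 libraries ranged from 22853946 to 28635511.

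Cells answer misfolded proteins through several pathways with different sensors. Kinases that phosphorylate eIF2 alpha slow translation and raise the factor ATF4, whose targets import and make amino acids, load tRNAs and, when the signal lasts, favour death; this is the integrated stress response. In the endoplasmic reticulum (ER), IRE1 splices XBP1 and ATF6 raises chaperones and degradation factors, while in the cytosol HSF1 raises the HSP70, HSP40 and HSP90 chaperones. Many ATF4 targets are metabolic enzymes, so stress level and metabolic level are read from overlapping genes.

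Guide reads in the same table separated the clones. The guide with HDAC2 in its name had 3504, 2867 and 3181 reads in the clone 4 HyT36 libraries and 9, 5 and 2 in those of clone 5. The guide with IGF1R in its name had 13, 9 and 5 reads in clone 4 and 2623, 2828 and 3029 in clone 5. The mRNA of HDAC2, a histone deacetylase, stood at 281, 274 and 273 CPM (reads scaled to a common library size, with TMM factors) in clone 4 and 395, 400 and 385 CPM in clone 5 under HyT36, a log2 difference of 0.51 (SE 0.04, adjusted p = 5.0e-15). The mRNA of IGF1R, a growth factor receptor, was 1.15-fold lower in clone 5 (48.6 ± 0.477 against 42.3 ± 2.17 CPM, mean ± SD, n = 3 in each group here and below; adjusted p = 0.0018). All adjusted p-values are Benjamini-Hochberg values of edgeR's quasi-likelihood test over all genes tested, log2 differences are clone 5 minus clone 4, and the threshold is 0.05.

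The label of the cells was checked against markers, and some libraries stood apart. VIM, ENO2 and the other genes of a list of 9 HEK 293 neural and mesenchymal markers summed to 793 to 828 CPM in clone 4 and 638 to 659 CPM in clone 5 under HyT36. Of these 9, the neural genes NEFL, NEFM and STMN2 did not pass the filter on low counts. The 10 kidney tubule markers summed to 19.7 to 24.1 CPM in clone 4 and 58.5 to 64.0 CPM in clone 5 under HyT36. Of the 2 autosomal ones tested, SLC12A3, a salt cotransporter, was higher in clone 5 (log2 difference 1.55, adjusted p = 1.6e-23) and LRP2, an endocytic receptor, lower (-2.64, adjusted p = 2.7e-06), while AQP2 and UMOD were at 0. KRT19, an epithelial keratin, stood at 41.1 and 42.1 CPM in clone 4 HyT36 libraries 2 and 3, at 0.216 CPM in library 1 and at no more than 0.212 CPM in the clone 5 HyT36 libraries; with DMSO it was high in all 3 clone 5 libraries and in clone 4 library 1. The 14 epithelial markers summed to 45.5 to 140 CPM in clone 4 and 66.6 to 77.1 CPM in clone 5 under HyT36. The 5 hepatocyte markers, led by ALB and SERPINA1, summed to 67.0 to 69.7 CPM and 115 to 126 CPM. With DMSO the hepatocyte sums were 78.8 to 346 CPM in clone 4 and 27.7 to 88.3 CPM in clone 5. Under HyT36, 0 of the 5 hepatocyte markers and 2 of the 12 tested epithelial markers passed the threshold. Their part in the clone differences was not tested, so the counts of each list below are also given from the 6 libraries with KRT19 under 1 CPM, where clone 4 under HyT36 has only library 1, whose spread is taken to be that of the other groups. Bulk libraries cannot tell fewer cells of a type from less RNA per cell.

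**Figure D1:**
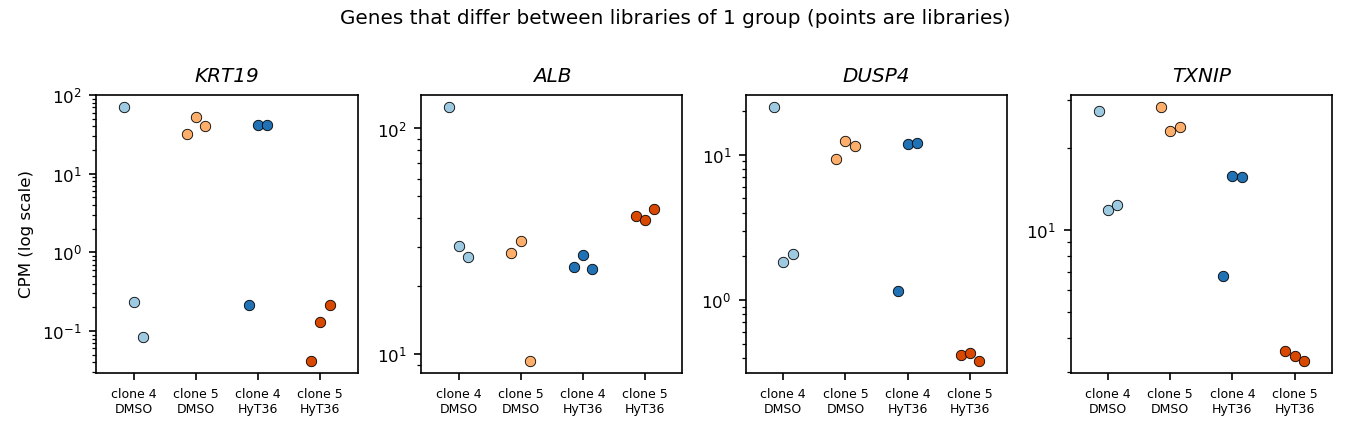
Level in CPM (log scale) of KRT19, ALB, DUSP4 and TXNIP in each of the 12 libraries, by group; each point is 1 library. KRT19, DUSP4 and TXNIP are high in clone 4 HyT36 libraries 2 and 3 and lower in library 1, and all 3 clone 5 HyT36 libraries are lower still in DUSP4 and TXNIP.

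The clones differed widely under ligand. Of 13541 autosomal genes, 56.1% passed the threshold, with 3358 higher (24.8%) and 4234 lower (31.3%) in clone 5. The median log2 difference was -0.03 and the median absolute difference was 0.24. A change of at least 1.5-fold together with the threshold was reached by 9.76% of genes as higher and by 9.02% as lower in clone 5. With DMSO, 25% were higher and 30.5% lower (9.61% and 8.78% by at least 1.5-fold). The comparisons contrast different libraries, but they share the same fit to all 12 libraries, with its filter and its estimate of the spread. In both comparisons 6236 genes were called in the same direction, which is 82.1% of the HyT36 calls and 82.9% of the DMSO calls. The difference between the comparisons was itself past the threshold for 0.318% of genes, 43 in all. Counts of gene lists are read against these shares.

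CHAC1, which breaks down glutathione and is a late target of ATF4, was among the stress genes furthest apart between the clones. It stood at 67.0, 65.5 and 63.0 CPM in clone 4 and at 9.96, 7.82 and 8.32 CPM in clone 5 under HyT36, so the groups did not overlap and clone 4 was 7.49-fold higher (log2 difference -2.90, SE 0.08, adjusted p = 3.3e-29). With DMSO it was low in both clones, at 4.61 ± 0.524 CPM in clone 4 and 1.19 ± 0.0937 CPM in clone 5, 3.87-fold apart. The clone difference was larger under ligand by -0.96 on the log2 scale (SE 0.18, adjusted p = 0.006), which limma-voom did not call (-0.98, adjusted p = 0.073). CHAC1 lies on chr15:40953471-40956512 (GRCh38).

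The promoters of CHAC1, of the ATF4 target ASNS and of HERPUD1 are shown because each holds TGATGNAA, the core of the site that ATF4 pairs bind, on either strand (capitals). They are the 250 bases before a transcription start in RefSeq on GRCh38.p14, written 5′ to 3′ on the strand of the gene. Their matches begin 209, 68 and 176 bases before the start. CHAC1 is on the plus strand at chr15:40953221-40953470, ASNS on the minus strand at chr7:97872409-97872658 and HERPUD1 on the plus strand at chr16:56931892-56932141.
CHAC1: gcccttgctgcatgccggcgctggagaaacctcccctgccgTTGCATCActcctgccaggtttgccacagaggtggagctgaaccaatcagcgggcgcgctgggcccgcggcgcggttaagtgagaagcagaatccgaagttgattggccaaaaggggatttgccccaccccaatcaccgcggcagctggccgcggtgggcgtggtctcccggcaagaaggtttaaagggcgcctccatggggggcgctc
ASNS: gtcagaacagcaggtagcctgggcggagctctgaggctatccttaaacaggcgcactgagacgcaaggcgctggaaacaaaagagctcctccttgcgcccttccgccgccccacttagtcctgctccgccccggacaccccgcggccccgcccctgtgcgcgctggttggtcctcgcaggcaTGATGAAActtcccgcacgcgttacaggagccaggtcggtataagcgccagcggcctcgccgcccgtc
HERPUD1: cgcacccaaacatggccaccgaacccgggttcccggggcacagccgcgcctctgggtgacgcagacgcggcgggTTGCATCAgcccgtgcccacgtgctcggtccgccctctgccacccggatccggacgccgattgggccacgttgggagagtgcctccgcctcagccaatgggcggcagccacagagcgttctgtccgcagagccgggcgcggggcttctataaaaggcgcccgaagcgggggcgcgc
Over windows that also take in the first bases after the start, TGATGNAA was found in 3.62% of 35116 promoters and in 4.46% of genes. In the integrated stress response list it was found in 10 of 34 genes with a promoter in the table, among them ATF3, CEBPG, SLC7A1 and SLC3A2. The longer form TGATGNAAT, which contains TGATGNAA, was found in 0.991% of promoters and in 1 list gene, FGF21. The shorter form was chosen after the sequences were seen, and a match is a description of letters only.

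Other ATF4-linked genes reached higher levels in clone 4. DDIT4, which restrains the growth kinase mTORC1, stood at 55, 59.2 and 61.2 CPM in clone 4 and 18.4, 17.2 and 17.7 CPM in clone 5 under HyT36, a log2 difference of -1.72 (SE 0.16, adjusted p = 8.4e-06). With DMSO the 2 clones held 4.86 ± 1.83 and 4.92 ± 0.793 CPM, and the test of the change in the clone difference gave -1.73 with adjusted p = 0.054, just outside the threshold. STC2, a secreted stress glycoprotein, stood at 101, 108 and 103 CPM in clone 4 and 49.2, 48.1 and 52.2 CPM in clone 5, 2.09-fold apart under ligand and 1.61-fold with DMSO. The change, -0.38 (adjusted p = 0.021), missed the threshold without any 1 of 8 libraries, all but clone 4 DMSO library 1, clone 4 HyT36 library 1, clone 5 DMSO library 1 and clone 5 HyT36 library 3 (adjusted p up to 0.11). ASNS, which makes asparagine, was low throughout, with 3.79, 2.70 and 3.58 CPM in clone 4 and 1.51, 1.26 and 1.27 CPM in clone 5 under HyT36 (log2 difference -1.31, SE 0.25, adjusted p = 2.2e-05). None of these groups overlapped under HyT36.

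Of the regulators of the pathway, ATF4, ATF3 and TRIB3 differed less than these targets, whereas CEBPB differed more than STC2. ATF4 itself was at 623 ± 18.1 CPM in clone 4 and 463 ± 28.0 CPM in clone 5 (log2 difference -0.43, adjusted p = 1.5e-07), and the same -0.42 separated the clones with DMSO. ATF4 is controlled mainly by translation, which these counts do not measure. DDIT3, the death-linked factor CHOP, was at 5.41, 3.18 and 5.54 CPM in clone 4 and 2.47, 2.65 and 2.63 CPM in clone 5 (adjusted p = 6.0e-04). ATF3 differed by -0.42 and CEBPB, a partner of ATF4, by -1.19 (adjusted p = 0.0022). TRIB3, a feedback inhibitor of ATF4, was at 46.3 ± 1.70 and 42.3 ± 1.46 CPM (log2 difference -0.13, adjusted p = 0.042). Its call was lost without any 1 of 9 libraries, all but clone 4 DMSO library 1, clone 4 HyT36 library 2 and clone 5 HyT36 library 3 (adjusted p up to 0.14).

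SESN2, a sestrin that senses leucine and restrains mTORC1, changed its order between the conditions. It stood at 67.2, 65.8 and 65.1 CPM in clone 4 and 49.4, 49.6 and 46.6 CPM in clone 5 under HyT36, whereas with DMSO clone 5 was higher (46.3 ± 4.21 against 38.2 ± 6.05 CPM, adjusted p = 0.024). The change of the clone difference was -0.72 (adjusted p = 0.044), and it missed the threshold when any 1 of 8 of the 12 libraries was left out: clone 4 DMSO library 3, clone 5 DMSO library 3 or any HyT36 library (adjusted p up to 0.19). TRIB3 also lay higher in clone 5 with DMSO and lower under HyT36, but the change of its difference, -0.28, had adjusted p = 0.16.

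Across the integrated stress response list, 33 of 42 tested genes were lower and 5 higher in clone 5 under HyT36, that is 78.6% lower beside 31.3% of all autosomal genes. At least 1.5-fold, 18 were lower and 2 higher. The median log2 difference was -0.49 under HyT36 and -0.32 with DMSO, where 25 were lower and 6 higher, beside medians of -0.03 and -0.02 over all autosomal genes. FGF21 did not pass the filter, and SLC7A3 and TSC22D3 lie on the X chromosome and were not counted. The 5 higher members were ALDH18A1 and SLC1A4, which serve proline and neutral amino acid supply, KLHL24, GDF15 and CREBRF. GDF15, a secreted stress hormone, was near 1 CPM in both clones, and its call was lost without clone 4 library 1 or clone 5 library 1 or 3 of the HyT36 groups (adjusted p up to 0.12). Without clone 4 HyT36 library 1, 3 members were higher. From the KRT19-low libraries alone, 32 members were lower and 5 higher.

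**Figure D2:**
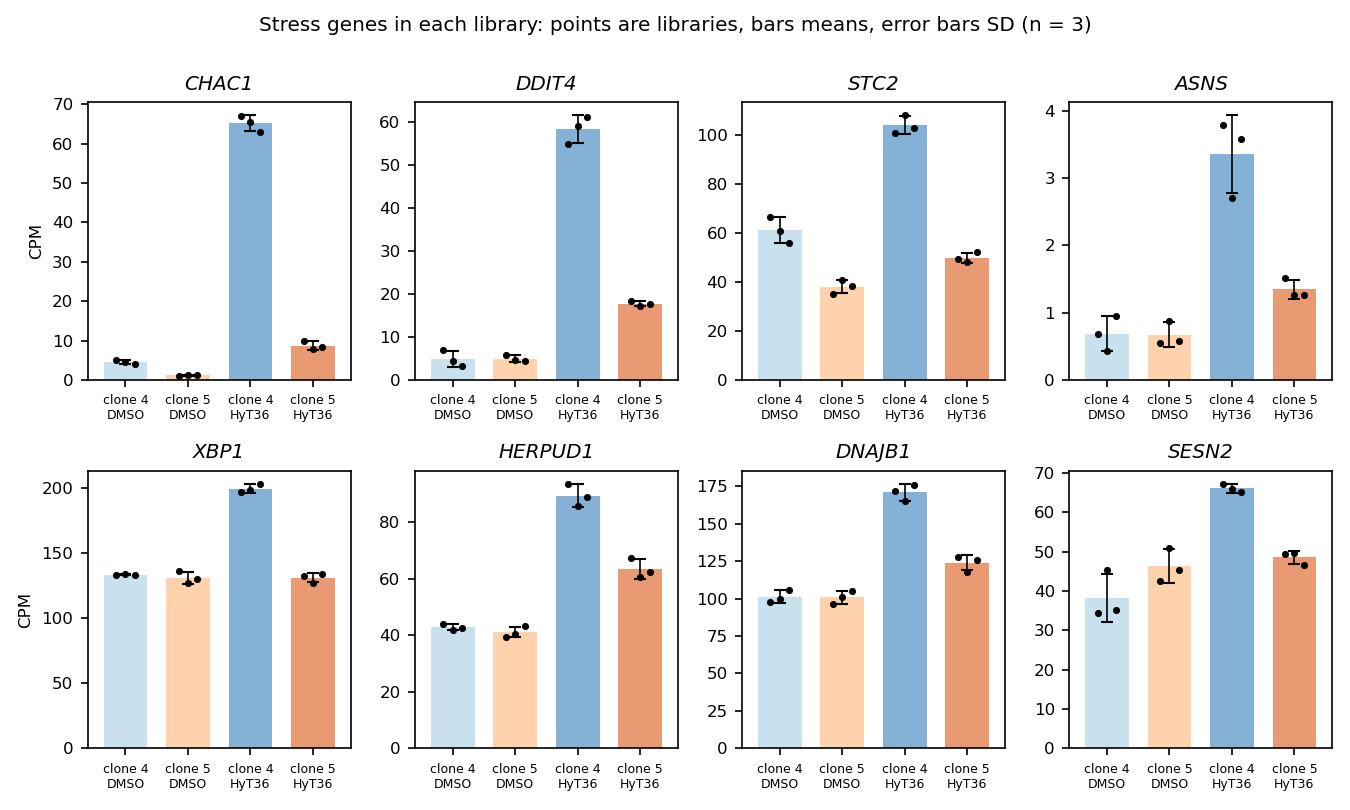
CPM of 8 stress genes in the 12 libraries, by group; points are libraries, bars are means and error bars are SD (n = 3). Under HyT36 the clone 4 points lie above the clone 5 points in all 8 panels, while with DMSO the clones overlap in XBP1, HERPUD1, DNAJB1, DDIT4, ASNS and SESN2.

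In the ER unfolded protein response the members split. XBP1, the factor spliced by IRE1, stood at 197, 198 and 203 CPM in clone 4 and at 132, 127 and 134 CPM in clone 5 under HyT36 (log2 difference -0.60, SE 0.04, adjusted p = 4.7e-17). With DMSO the means were 133 ± 0.440 and 131 ± 4.73 CPM, and the clone 5 mean was 131 CPM under both conditions. The change of the clone difference, -0.58 (SE 0.05, adjusted p = 6.9e-09), had an adjusted p of at most 5.6e-07 whichever library was left out. HERPUD1, which helps to clear proteins from the ER, followed with 93.5, 85.5 and 89.0 CPM in clone 4 and 67.2, 60.4 and 62.4 CPM in clone 5, against 42.9 ± 1.12 and 41.0 ± 1.89 CPM with DMSO. Its clone difference changed by -0.43 (SE 0.07, adjusted p = 0.0014).

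Other ER genes stood the other way round or close together. EDEM1, which directs misfolded glycoproteins to degradation, was at 46.2, 49.3 and 50.1 CPM in clone 5 and at 26, 26.5 and 26.7 CPM in clone 4, 1.84-fold higher in clone 5 and without overlap. SDF2L1, an ER chaperone cofactor, was 1.34-fold higher (adjusted p = 1.9e-08) and the disulfide isomerase PDIA4 1.24-fold higher in clone 5 (adjusted p = 8.6e-10). HSPA5, the ER HSP70 also called BiP, was 1.10-fold lower in clone 5 (989 ± 16.8 against 898 ± 22.9 CPM, adjusted p = 8.1e-04). DNAJB9, an ER co-chaperone, was at 21.0 ± 0.0725 CPM in clone 4 and 18.3 ± 0.216 CPM in clone 5 (log2 difference -0.20, adjusted p = 0.03), a call lost without any HyT36 library other than clone 5 library 2 (adjusted p up to 0.085). Of 45 tested genes of the list, 15 were higher (33.3%) and 12 lower (26.7%) in clone 5, near the shares of all genes, and the median was -0.03; the KRT19-low libraries gave 11 and 9.

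Among heat shock genes DNAJB1, the HSP40 that hands clients to HSP70, was the member whose clone difference changed past the threshold. It stood at 172, 165 and 176 CPM in clone 4 and 128, 118 and 126 CPM in clone 5 under HyT36, and at 101 ± 4.14 CPM in each clone with DMSO. The clone difference was -0.46 (SE 0.04, adjusted p = 2.3e-12), and its change was -0.46 (SE 0.06, adjusted p = 2.0e-05). The promoter of DNAJB1, on the minus strand at chr19:14518398-14518647 (RefSeq, GRCh38.p14, 250 bases before a start), is shown because it holds 2 copies of GAANNTTC, the paired unit that HSF1 binds (capitals), beginning 77 and 47 bases before the start.
DNAJB1: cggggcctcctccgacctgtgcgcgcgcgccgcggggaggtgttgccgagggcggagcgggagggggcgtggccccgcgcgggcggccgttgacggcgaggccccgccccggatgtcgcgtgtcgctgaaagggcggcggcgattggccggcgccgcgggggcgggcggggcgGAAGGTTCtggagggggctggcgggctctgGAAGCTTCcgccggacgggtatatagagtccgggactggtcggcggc
GAANNTTC reads the same on both strands, and it was found in 6.77% of promoters, in 8.21% of genes and in 15 of 30 genes of the heat shock list with a promoter in the table, HSPA8, HSPA1A and HSP90AB1 among them.

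Several HSP70 and HSP90 genes differed between the clones with and without ligand, while 11 of the 34 heat shock genes did not pass the threshold under HyT36. HSPA1A and HSPA1B, inducible HSP70 genes that are near-identical and may share reads, were at 69.7, 68.2 and 75.3 CPM and at 75, 75.4 and 84.8 CPM in clone 4, against 41.3, 38.7 and 41.1 CPM and 48.0, 41.6 and 44.4 CPM in clone 5. Their log2 differences were -0.82 and -0.81 under HyT36 and -0.54 and -0.53 with DMSO, and the changes had adjusted p = 0.17 and 0.2. HSP90AB1, the constitutive cytosolic HSP90, was at 5655 ± 117 and 3949 ± 142 CPM, a difference of -0.52 against -0.53 with DMSO. HSPA8, the constitutive HSP70, differed by -0.25 and -0.26. Of 34 heat shock genes, 20 were lower (58.8%) and 3 higher in clone 5, with a median of -0.12; the KRT19-low libraries gave 18 and 2. Where a fold above 1.2 was required, 6 heat shock genes were lower and 0 higher. BAG3, an HSP70 cofactor and 1 of the 3 higher members, was not called without clone 5 HyT36 library 3 (adjusted p = 0.07).

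Mitochondrial chaperones and proteases were lower in clone 5 for 14 of 19 genes and higher for 0, with a median of -0.20 under HyT36 and -0.18 with DMSO; the KRT19-low libraries gave 11 and 0. The 14 are 73.7% of the list, beside 31.3% of all autosomal genes, and 2 were called lower where a fold above 1.2 was required. LRPPRC, which stabilises mitochondrial mRNAs, was at 471 ± 10.4 CPM in clone 4 and 336 ± 13.4 CPM in clone 5. The mitochondrial HSP70 HSPA9 was at 1072 ± 9.97 and 917 ± 24.1 CPM. GRPEL2, a nucleotide exchange factor for HSPA9, was at 54.0, 50.6 and 52.2 CPM in clone 4 and 37.5, 42.2 and 40.7 CPM in clone 5, and at 39.5 ± 3.94 and 39.7 ± 0.345 CPM with DMSO. Its change of -0.39 (adjusted p = 0.022) missed the threshold without any 1 of 8 libraries (adjusted p up to 0.12), among them clone 4 HyT36 libraries 1 and 3, clone 5 HyT36 libraries 1 and 3, all 3 clone 5 DMSO libraries and clone 4 DMSO library 2. Of 17 eIF2 alpha kinases, phosphatases and relays, 4 were higher and 5 lower (3 lower without clone 4 HyT36 library 1, and 4 and 6 in the KRT19-low libraries). In the main fit these were 23.5% higher and 29.4% lower, near the shares of all autosomal genes. DELE1, the relay from mitochondria, was 1.54-fold lower (adjusted p = 1.3e-11). EIF2AK4, the kinase GCN2 that senses uncharged tRNA, was 1.29-fold higher in clone 5 (adjusted p = 1.1e-10). Of 35 proteasome genes 12 were lower (34.3%) and 5 higher (14.3%), with a median of -0.06 and none past 1.5-fold. The lower share was near the 31.3% of all autosomal genes, and the higher share was below their 24.8%. Where a fold above 1.2 was required, 1 was lower and 0 higher. The KRT19-low libraries gave 10 lower and 2 higher, and scaling by total counts alone gave 9 higher.

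Oxidative stress genes went both ways. HMOX1, which degrades heme, stood at 14.1, 14 and 14.5 CPM in clone 4 and 4.52, 4.39 and 5.81 CPM in clone 5, and NQO1, a quinone reductase, at 59.4 ± 2.60 and 31.5 ± 1.08 CPM. GCLC, which starts glutathione synthesis, was 1.37-fold higher in clone 5 (adjusted p = 6.0e-11). The NRF2 list had 10 of 28 genes higher and 9 lower, and the glutathione list 7 of 26 higher and 11 lower; the KRT19-low libraries gave 8 and 9, and 7 and 12. Within the glutathione list GPX3, a secreted peroxidase, and GLRX, a glutaredoxin, were 3.88-fold and 5.21-fold lower in clone 5, and the transferases GSTO1 and GSTA4 were 1.62-fold and 1.64-fold higher. These 7 genes differed in the same direction with DMSO, and the changes of the difference had adjusted p of 0.87 or more.

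Genes of the p53 pathway and of apoptosis also split. Of 29 p53 targets, 8 were higher (27.6%) and 7 lower (24.1%) in clone 5, beside 24.8% and 31.3% of all autosomal genes. Without clone 4 HyT36 library 1, or clone 5 HyT36 library 1 or 3, 5 were higher, and the KRT19-low libraries gave 6 and 6. BTG2, which slows proliferation, was at 22.9, 28.0 and 23.5 CPM in clone 4 and 49.8, 50.2 and 48.6 CPM in clone 5, while the death receptor FAS was 1.91-fold lower (adjusted p = 4.4e-06) and the cell cycle inhibitor CDKN1A 1.64-fold lower (adjusted p = 0.004). PMAIP1, a death-promoting protein also called NOXA that both p53 and ATF4 raise, was at 47.5, 46.1 and 44.5 CPM in clone 4 and 26.5, 31.3 and 29.0 CPM in clone 5, and its difference changed by -0.42 (adjusted p = 0.013). That change missed the threshold without clone 4 or clone 5 HyT36 library 1 (adjusted p up to 0.074). BCL2, which blocks apoptosis, was 1.83-fold higher in clone 5 and its relative MCL1 1.37-fold lower, while BOK, a death-promoting member, was 7.29-fold lower; all 3 differed in the same direction with DMSO (adjusted p of the changes 0.64 or more). Of 26 BCL2 family and caspase genes, 8 were higher (5 without clone 4 HyT36 library 3) and 6 lower, and the KRT19-low libraries gave 6 and 5.

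Immediate early genes, which answer growth signals within minutes, were lower in clone 5 for 18 of 32 (56.2%) and higher for 3 (9.4%). The shares of all autosomal genes were 31.3% and 24.8%. The median of the list was -0.52 under HyT36 and -0.33 with DMSO. CCN1, a matrix protein driven by YAP and SRF, stood at 105, 97.1 and 102 CPM in clone 4 and 17.8, 17.9 and 16.6 CPM in clone 5. Its difference was smaller under HyT36, at -2.54, than with DMSO, at -2.92 (change 0.38, adjusted p = 0.015), but that change missed the threshold without clone 4 HyT36 library 2, clone 5 DMSO library 3 or clone 5 HyT36 library 1 or 2 (adjusted p up to 0.064). KLF4 was the opposite case, at 40.1 ± 0.386 CPM in clone 4 and 84.9 ± 6.22 CPM in clone 5. DUSP4, an ERK phosphatase, was called lower in clone 5 (adjusted p = 0.042), but its clone 4 values of 1.15, 11.9 and 12.1 CPM had the order of KRT19 in the same libraries, and the call was lost without clone 4 HyT36 library 2 or 3, any clone 5 HyT36 library or any clone 5 DMSO library (adjusted p up to 0.11). TXNIP, an arrestin-like brake on glucose uptake, showed the same order, with 6.78, 15.8 and 15.7 CPM in clone 4 against 3.6, 3.43 and 3.31 CPM in clone 5. The part of the KRT19-high libraries in these values was not tested. The KRT19-low libraries gave 16 of 30 immediate early genes lower and 2 higher.

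**Figure D3:**
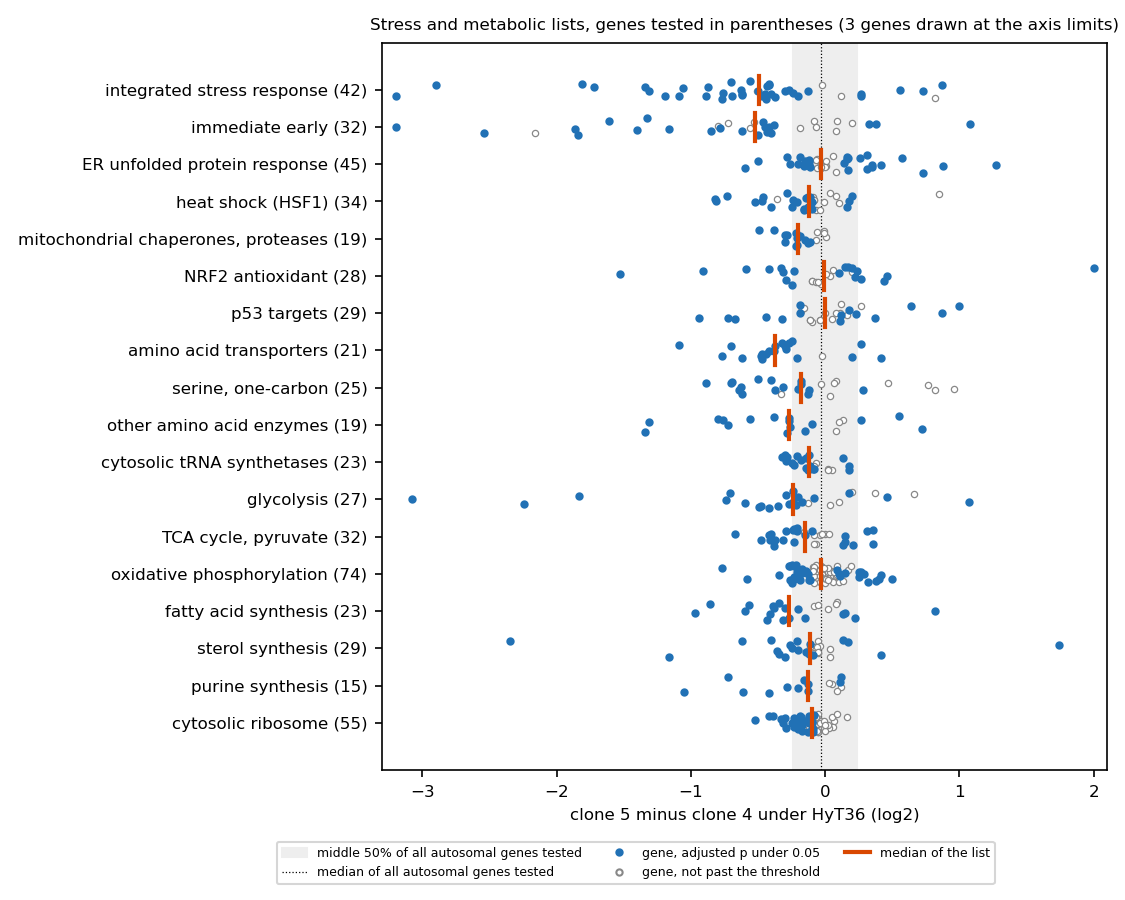
Log2 difference, clone 5 minus clone 4 under HyT36, of each tested gene in 18 stress and metabolic lists (filled points passed the adjusted p threshold, open points did not; 3 genes beyond the axis are drawn at its limits), with the median of each list as a bar. The medians of the integrated stress response and immediate early lists, -0.49 and -0.52, lie left of the shaded middle range of all autosomal genes (-0.24 to 0.24), and the ER, NRF2 and p53 medians lie between -0.03 and 0.00.

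Enzymes of serine and one-carbon metabolism, many of them ATF4 targets, were lower in clone 5 under both conditions. PSAT1, an enzyme of serine synthesis, stood at 598, 570 and 565 CPM in clone 4 and 363, 364 and 349 CPM in clone 5 under HyT36 (log2 difference -0.69, SE 0.04, adjusted p = 1.0e-19), with -0.61 in DMSO. SHMT2, which moves serine carbon into mitochondrial folate, stood at 314, 323 and 311 CPM against 176, 163 and 175 CPM, and MTHFD2, the next step, at 480 ± 19.3 against 310 ± 6.53 CPM. PHGDH, which commits carbon to serine, differed by -0.37 (adjusted p = 3.9e-11). None of these 4 groups overlapped, and none of the changes from DMSO passed the threshold (adjusted p of 0.74 to 0.96).

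MAT2A, which makes the methyl donor S-adenosylmethionine, was the member of the serine and one-carbon list whose difference changed. It stood at 300, 286 and 285 CPM in clone 4 and 182, 185 and 192 CPM in clone 5 under HyT36, below its DMSO means of 359 ± 11.7 and 285 ± 6.63 CPM. The clone difference went from -0.33 with DMSO to -0.64, a change of -0.31 (SE 0.05, adjusted p = 0.0016). CTH, which makes cysteine, changed by -0.37 with adjusted p = 0.051. Of 25 genes of the list, 15 were lower (60.0%) and 1, MTHFD2L, higher, with medians of -0.18 under HyT36 and -0.20 with DMSO; the KRT19-low libraries also gave 15 and 1. Scaling by total counts alone gave 5 higher, and leaving out clone 4 DMSO library 1 or 2, or clone 5 HyT36 library 1 or 2, gave 2 higher.

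Enzymes and carriers of other amino acids were mostly lower in clone 5. PCK2, the mitochondrial enzyme that makes phosphoenolpyruvate, stood at 44.9, 44.2 and 42.9 CPM in clone 4 and 17.8, 16.3 and 18.0 CPM in clone 5, 2.53-fold apart under HyT36 and 2.34-fold with DMSO. BCAT1, which transfers nitrogen from branched amino acids, was 1.64-fold lower, GPT2, an alanine transaminase, 1.69-fold and PYCR1, which completes proline, 1.47-fold lower in clone 5. ALDH18A1, the first step of proline synthesis, was higher in clone 5 at 330 ± 12.3 against 274 ± 2.02 CPM. Of 19 such enzymes 13 were lower and 3 higher, with a median of -0.27; the KRT19-low libraries gave 12 and 3. Without clone 4 DMSO library 2, and with scaling by total counts alone, 5 were higher.

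Of 21 amino acid transporters, 17 were lower (81.0%) and 3 higher, with medians of -0.37 under HyT36 and -0.38 with DMSO, and the KRT19-low libraries gave 16 and 2. SLC38A2, which imports small neutral amino acids and is itself an ATF4 target, stood at 276, 264 and 256 CPM in clone 4 and 151, 164 and 154 CPM in clone 5. The glycine carrier SLC6A9 was 2.13-fold lower, the arginine carrier SLC7A1 1.54-fold and SLC7A5, the large neutral carrier, 1.39-fold lower. SLC7A11, the cystine importer, was 1.33-fold lower (adjusted p = 2.4e-08). Cytosolic tRNA synthetases were lower for 15 of 23 genes and higher for 3 (VARS1 and the scaffold AIMP1 among them), with a median of -0.12 and none past 1.5-fold; the KRT19-low libraries gave 10 and 2.

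Glycolysis genes were lower in clone 5 for 18 of 27 (66.7%) and higher for 3, with medians of -0.24 under HyT36 and -0.29 with DMSO. SLC16A3, the lactate exporter MCT4, stood at 71.7, 73.7 and 71.1 CPM in clone 4 and 9.38, 8.30 and 7.85 CPM in clone 5, an 8.48-fold difference (adjusted p = 1.2e-31) beside 8.05-fold with DMSO. PGM1, which links glycogen to glycolysis, was 3.55-fold lower, the glucose carrier SLC2A3 4.75-fold, TPI1 1.51-fold and ENO2 1.64-fold lower. PFKFB2, a switch for phosphofructokinase, was 2.1-fold higher in clone 5. HK2, the first enzyme of glucose use, stood at 207 ± 6.75 and 212 ± 7.90 CPM (log2 difference 0.04, SE 0.04, adjusted p = 0.41), and LDHA at 1991 ± 38.2 and 1884 ± 51.8 CPM (difference -0.08, adjusted p = 0.046), a call lost without any library other than clone 4 DMSO library 1 (adjusted p up to 0.28). The KRT19-low libraries gave 17 glycolysis genes lower and 6 higher, and leaving out clone 5 DMSO library 3 or clone 5 HyT36 library 2, or scaling by total counts alone, gave 5 higher.

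In hypoxia genes 11 of 24 were lower and 3 higher, and the KRT19-low libraries gave 11 and 2 of 23. In the main fit 45.8% were lower and 12.5% higher, beside 31.3% and 24.8% of all autosomal genes. LOX, a collagen crosslinking enzyme, was 9.58-fold lower in clone 5 (20.1 ± 2.25 against 2.1 ± 0.0545 CPM) and 9.37-fold lower with DMSO. VEGFA, an angiogenic factor that ATF4 also raises, stood at 38.3, 41.1 and 38 CPM in clone 4 and 25.2, 29.0 and 28.8 CPM in clone 5, against 26.7 ± 1.2 and 25.6 ± 1.73 CPM with DMSO. Its change of -0.44 (adjusted p = 0.021) missed the threshold without clone 4 DMSO library 3, clone 4 HyT36 library 2, clone 5 DMSO library 2 or clone 5 HyT36 library 1 (adjusted p up to 0.11).

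Mitochondrial energy genes differed in small steps. Of 32 genes of the TCA cycle and pyruvate use, 17 were lower and 7 higher, with a median of -0.15. The KRT19-low libraries gave 15 lower and 3 higher, and the fit with KRT19 and hepatocyte terms also gave 3 higher. OGDH, a subunit of the oxoglutarate dehydrogenase, was 1.59-fold lower and its partner DLST 1.34-fold lower. Of 74 nuclear respiratory chain genes, 22 were lower (29.7%) and 13 higher (17.6%), neither share above that of all genes, and the median was -0.03; scaled by total counts alone, 21 were higher and the median was 0.02. The KRT19-low libraries gave 16 lower and 10 higher. NDUFB10, a complex I subunit, was the exception in size, at 106, 104 and 104 CPM in clone 4 and 63.5, 58.2 and 62.6 CPM in clone 5.

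Of 23 genes of fatty acid synthesis, 14 were lower (60.9%) and 4 higher, with a median of -0.27. The KRT19-low libraries gave 11 and 1, and leaving out clone 4 HyT36 library 2 gave 2 higher. SCD, which makes monounsaturated fatty acids, stood at 1631, 1575 and 1606 CPM in clone 4 and 1078, 1113 and 1060 CPM in clone 5, FADS1, a desaturase, was 1.82-fold lower and FASN, the fatty acid synthase, 1.24-fold lower. Of 29 sterol genes, 15 were lower and 4 higher, with a median of -0.11; the KRT19-low libraries gave 13 and 4. In the main fit 51.7% of the sterol genes were lower and 13.8% higher, beside 31.3% and 24.8% of all autosomal genes. Here CYP51A1 was 1.53-fold lower and the SREBP retainer INSIG1 1.32-fold lower. The cholesterol exporter ABCA1 was 3.33-fold higher (20.9 ± 1.45 against 6.29 ± 0.861 CPM). HMGCS1, an early enzyme of the pathway, differed by -0.08 (SE 0.04, adjusted p = 0.063).

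IMPDH2, the rate-limiting enzyme of guanine nucleotide synthesis, stood at 368, 352 and 365 CPM in clone 4 and 180, 178 and 168 CPM in clone 5, and of 15 purine genes 9 were lower and 2 higher. The number higher was 0 without clone 4 HyT36 library 2 or clone 5 HyT36 library 1, 1 without clone 5 HyT36 library 2 and 5 with scaling by total counts alone, and the KRT19-low libraries gave 7 lower and 1 higher. Of 55 cytosolic ribosomal protein genes, 32 were lower (58.2%) and 0 higher, with a median of -0.10 and none past 1.5-fold, and scaled by total counts alone 5 were higher and the median was -0.06. In the KRT19-low libraries 24 were lower and 1 higher, and leaving out clone 4 DMSO library 1 or 2, any clone 5 DMSO library or clone 5 HyT36 library 2 gave 2 higher. RPL7A, at 1886 ± 12.8 and 1319 ± 45.9 CPM, was the most different of those named. Ribosomal protein genes have many near-identical pseudogenes and their counts are uncertain for that reason. Of 24 mTORC1 brakes, 10 were lower and 5 higher (7 and 5 in the KRT19-low libraries). In the main fit 41.7% of the brakes were lower and 20.8% higher, beside 31.3% and 24.8% of all autosomal genes. Beside DDIT4 and SESN2, the DDIT4 relative DDIT4L was 2.70-fold lower and DEPTOR, which binds mTOR, 3.04-fold higher in clone 5. Of 24 genes of G2 and mitosis, 13 were lower and 3 higher, with a median of -0.15; the KRT19-low libraries gave 12 and 2.

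**Figure D4:**
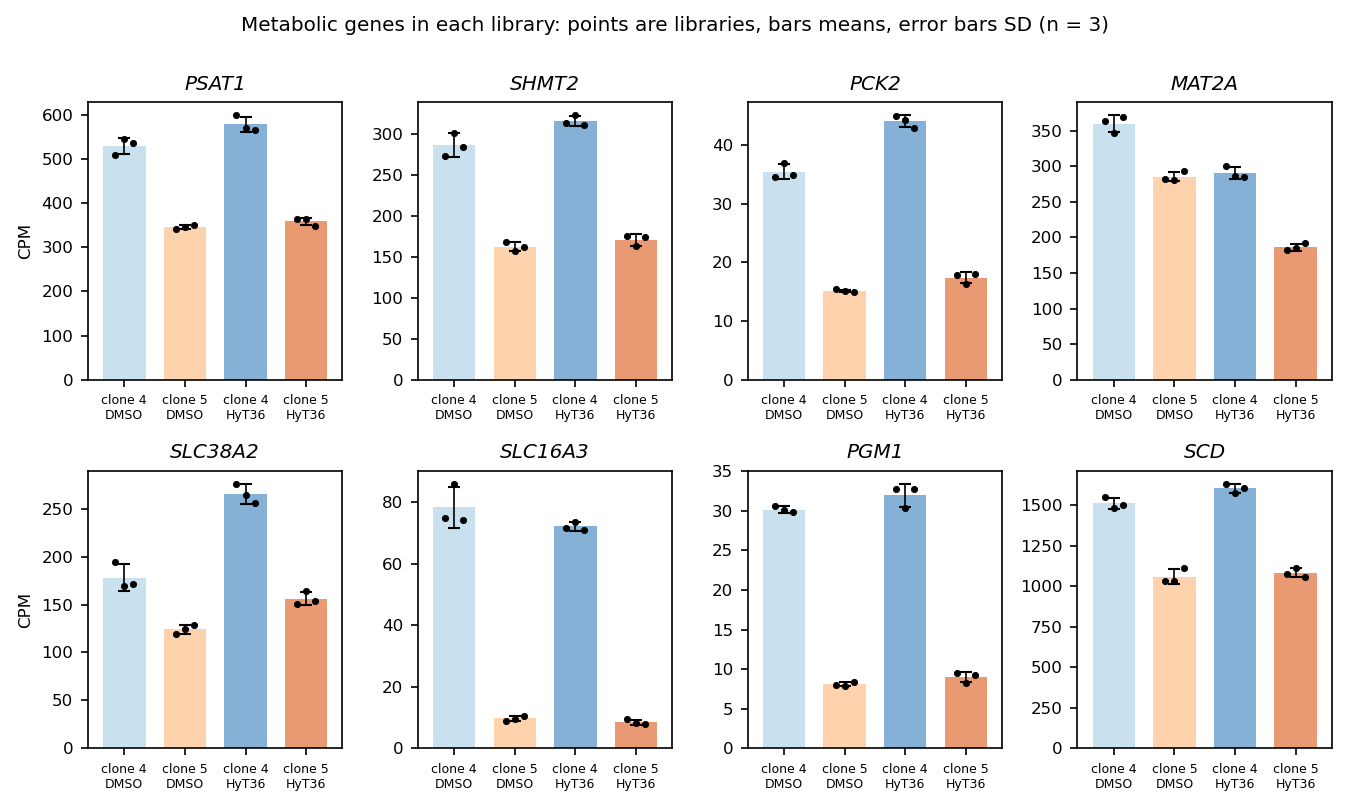
CPM of 8 metabolic genes in the 12 libraries, by group; points are libraries, bars are means and error bars are SD (n = 3). Clone 4 lies above clone 5 with and without HyT36 in all 8 panels, from 8.48-fold under HyT36 in SLC16A3 to 1.48-fold in SCD.

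The genes whose clone difference changed with ligand were few. Of 13541 autosomal genes, 25 (0.185%) moved towards lower values in clone 5 and 18 (0.133%) towards higher ones. The integrated stress response list held 5 of them, VEGFA, STC2, CHAC1, SESN2 and NIBAN1, all moving lower, and the lists of the ER response, heat shock, mitochondrial chaperones and one-carbon metabolism held XBP1 and HERPUD1, DNAJB1, GRPEL2 and MAT2A. Called or not, the clone difference was lower under HyT36 than with DMSO for 34 of the 42 tested integrated stress response genes, beside 52.6% of all autosomal genes. Movement to higher values included SGK1, a kinase induced by stress and steroids, with 8.87, 7.85 and 8.55 CPM in clone 4 and 21.4, 21.1 and 20.9 CPM in clone 5 under HyT36 and a change of 0.65 (adjusted p = 0.0079). Of the 21 named genes with a called change, 7 stayed past the threshold whichever library was left out: XBP1, DNAJB1, HERPUD1, MAT2A, CHAC1, SGK1 and NCAM2. NIBAN1, a translation regulator, stood at 8.76, 9.77 and 11.9 CPM in clone 4 and 0.335, 0.174 and 0.127 CPM in clone 5, and its change of -2.11 (adjusted p = 0.006) missed the threshold without clone 5 HyT36 library 2 or 3 (adjusted p up to 0.062). The number of called changes differed between fits that handle the libraries standing apart in different ways. With KRT19 status as a term it was 238, and with hepatocyte markers as a further term it was 1, DDIT4. Without clone 4 DMSO library 1 it was 136. In clone 5, KRT19 was high in every DMSO library and low in every HyT36 library, so there KRT19 status and ligand cannot be told apart. Why the number moved was not tested. In the fit with both terms the change was -0.57 for XBP1 (adjusted p = 0.12) and -1.28 for CHAC1 (adjusted p = 0.26).

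**Figure D5:**
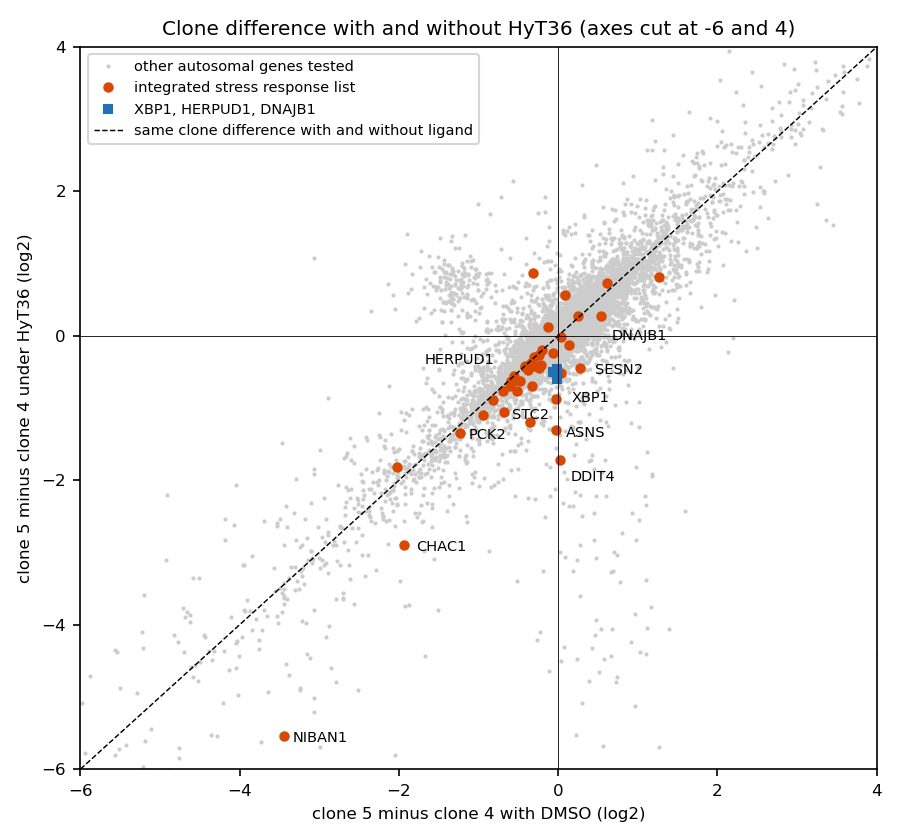
Log2 difference, clone 5 minus clone 4, under HyT36 (vertical) against the same difference with DMSO (horizontal) for autosomal genes; both axes are cut at -6 and 4, and the dashed line marks equal differences. XBP1, HERPUD1, DNAJB1, ASNS and DDIT4 lie near 0 with DMSO and below 0 under HyT36, and CHAC1 and NIBAN1 lie below the line; 82 genes lie under -2 under HyT36 and above 0 with DMSO, some of them, KRT19 included, beyond the axes.

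The largest differences under ligand were nearly on-off and were present with DMSO. Higher in clone 5 were SYK, a tyrosine kinase of immune receptors (99.1, 93.8 and 89.4 CPM against 0.361, 0.444 and 0.50 CPM in clone 4), SLFN11, which blocks stressed replication forks (72.2 ± 2.06 against 0.150 ± 0.137 CPM), the membrane glycoprotein PROM1 (106-fold) and the mitotic checkpoint ligase CHFR (128-fold). SLCO1B3, an organic anion transporter, had 1 read over the clone 4 libraries and was 1148-fold higher in clone 5 by reads (exact 95% interval 206 to 45374). The rest of the 10 largest in this direction were TRDN, SLC5A12, ZNF300, MAF and FBXO17.

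Lower in clone 5 were NELL1, a secreted growth protein (62.6, 59.1 and 60.9 CPM in clone 4 against 0.209, 0.0869 and 0.127 CPM), RELN, a secreted guide of neuronal migration (45.7 ± 1.33 against 0.113 ± 0.0863 CPM), HAPLN3, CYYR1 and LIN28A, an RNA-binding pluripotency factor (19.6 ± 0.779 against 0.0571 ± 0.0258 CPM). SEMA3D, a guidance cue, was 572-fold lower by reads (195 to 2774), NEGR1 546-fold (97.6 to 21587), SEMA6D 475-fold (84.9 to 18794) and the antisense gene MAGI2-AS3 402-fold (111 to 3329). NCAM2, a neural adhesion molecule, had 0 reads in the clone 5 HyT36 libraries and was at least 121-fold higher in clone 4, taking 3 reads over the group as the floor. These intervals and the floor cover counting error only. All 20 genes of the 2 sets differed past the threshold with DMSO as well.

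Medians of the clone difference over genome regions were mostly near 0, which does not show where the called genes lie. The medians of the 22 autosomes lay between -0.08 and 0.02, and of 146 windows of 20 Mb with at least 20 tested genes 126 had a median within 0.1 of 0. The lowest window, on chromosome 3 from 160 to 180 Mb, had -0.19 and the highest, on chromosome 9 from 60 to 80 Mb, had 0.28, with 0.20 in DMSO. Subtracting the median of its own window from each gene left the integrated stress response list at a median of -0.45, amino acid transporters at -0.36 and glycolysis at -0.23. It moved the serine and one-carbon list from -0.18 to -0.08, mitochondrial chaperones from -0.20 to -0.13 and fatty acid synthesis from -0.27 to -0.17.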

How the data were processed

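Bulk RNA of 12 libraries (2 clones, DMSO or HyT36, 3 each) was used; the other 24 samples of the series, single-cell and guide libraries, were not. Per the labels' protocols RNA was selected by polyA and made into libraries with a NEBNext Ultra II kit. The deposited table holds whole-number counts per gene and per guide feature, made by the authors; the submitters' processing notes name Cell Ranger 7 and GRCh38, and the aligner of the bulk reads, their annotation and strand use are not stated in these sources, so reads of overlapping or antisense genes cannot be told apart. Guide features and 4 summary rows (16.1 to 17.6% of counts) stayed out of library sizes. Gene counts per library were 22853946 to 28635511. Of 36601 genes, 36366 matched a gene symbol by Ensembl identifier, and 25097 matched a position in RefSeq (GRCh38.p14).

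Low counts were filtered with filterByExpr and libraries were scaled by TMM. Means of the 4 groups were fitted to all 12 libraries with edgeR 4.0.16 (robust quasi-likelihood, R 4.3.3). In counts simulated from that fit, 57.1% of 1.25-fold and 86% of 2-fold differences under HyT36 were recovered. For the change of the clone difference the shares were 34.7% and 80%, with 13 unchanged genes called. P-values were adjusted over 14892 genes by the Benjamini-Hochberg method. The change of the clone difference is the interaction term. The labels do not say that replicates are separate cultures, so p-values measure the spread between these libraries, which may be technical. Replicates of a group differed by more than sampling noise (chi-square per degree of freedom 1.9 to 8.15).

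The members and the 33 gene lists and 7 marker lists were chosen with earlier results of these data known. Named genes are the 10 largest non-overlapping differences each way, the 5 largest called changes each way, for each list up to 4 members with the smallest p, the 2 largest and the 2 with the smallest p for the change, and fixed pathway genes; genes outside this rule are named only as the complete set behind a small count, as markers or as motif matches, after their values were seen. A few genes are not reported here. Alternatives were RLE or total-count scaling, no filter, a replicate block, a minimum fold of 1.2 (glmTreat), compared groups only, DESeq2 1.42.0, limma-voom (limma 3.58.1) and leaving out each library; 3 that use KRT19 or hepatocyte markers were added after seeing the data.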

Additional observations from a re-analysis of the deposited data

Results flagged for a closer look

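The clone difference under HyT36 differed from that with DMSO, by the interaction term of edgeR's quasi-likelihood test, in 21 of the named genes; values are the change in log2 units, HyT36 minus DMSO. It moved lower in XBP1 (-0.58), DNAJB1 (-0.46), HERPUD1 (-0.43), CHAC1 (-0.96), MAT2A (-0.31), STC2 (-0.38), VEGFA (-0.44), SESN2 (-0.72), NIBAN1 (-2.11), PMAIP1 (-0.42) and GRPEL2 (-0.39). It also moved lower in NCAM2 (-5.84), SEMA3D (-2.73), NELL1 (-1.87) and SH2D4A (-1.85), all of them under 1 CPM in the clone 5 HyT36 libraries, so these fitted changes depend on few reads. It moved higher in NSG1 (2.78), PPP2R2B (2.69), MMP15 (0.94), C1R (0.88), SGK1 (0.65) and CCN1 (0.38). Both NSG1 and PPP2R2B still stood far lower in clone 5 under HyT36. Their log2 differences there were -4.93 to -4.22 and -5.58 to -5.01 with 1 library left out in turn.

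For the genes whose change has not yet been given with each library left out, the call was lost for C1R without clone 5 HyT36 library 1 (adjusted p = 0.052) and for NSG1 without clone 5 HyT36 library 2 (adjusted p = 0.17). It was lost for NELL1 without clone 5 DMSO library 1 or clone 5 HyT36 library 2 or 3 (adjusted p up to 0.54), and for SEMA3D without clone 5 DMSO library 3 or clone 5 HyT36 library 2 or 3 (adjusted p up to 0.33). It was lost for SH2D4A without any 1 of 5 libraries, clone 4 HyT36 library 2 or 3, clone 5 DMSO library 1 or clone 5 HyT36 library 1 or 3 (adjusted p up to 0.12). For MMP15 it was lost without any 1 of 7 libraries (adjusted p up to 0.16), those of HyT36 except clone 4 library 1, clone 4 DMSO library 2 and clone 5 DMSO library 3. For PPP2R2B it was lost without any 1 of 8 libraries (adjusted p up to 0.29), all but clone 4 DMSO library 1, clone 4 HyT36 library 3, clone 5 DMSO library 1 and clone 5 HyT36 library 3. NCAM2 stayed past the threshold in each of the 12.

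A further guide, with LRIG1 in its name, had 107, 114 and 118 reads in the clone 5 HyT36 libraries and 0 in those of clone 4. LRIG1 mRNA, a brake on receptor tyrosine kinases, was at 10.7 and 9.55 CPM in clones 4 and 5 under HyT36 (log2 difference -0.16, adjusted p = 0.23).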

How the results depend on the processing

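No named gene that was called changed direction under the alternatives run on it; the other genes were counted only. Requiring a fold above 1.2, a stricter test by construction, left 3481 HyT36 calls (1680 higher, 1801 lower) and 3346 DMSO calls (1644 and 1702). It left 6 changes of the clone difference (2 and 4). Under it 0 cytosolic tRNA synthetases were lower in clone 5, beside 10 glycolysis genes, 9 amino acid transporters and 7 fatty acid synthesis genes. With KRT19 status and hepatocyte markers as terms, 5343 HyT36 calls (2250 and 3093) remained in number, beside 7592 in the main fit. The same fit left 4440 DMSO calls (1949 and 2491) and 1 change (0 and 1). With KRT19 status alone as a term, 238 changes were called (205 higher). Without the library above the largest gap in the epithelial sum, clone 4 DMSO library 1, 136 changes were called (38 and 98), and without a filter 162 (92 and 70); the cause was not tested. Leaving out 1 library in turn gave 24 to 136 changes, 9 to 38 higher and 15 to 98 lower; without clone 4 HyT36 library 2 it was 26, and without clone 5 HyT36 library 1 or 2 it was 24 or 28. Over these 12 fits HyT36 calls ranged from 6929 to 8009. Of 209 named genes called under HyT36, 197 stayed past the threshold in every one of these 12. Over all alternatives, named genes kept their side of the threshold in 5706 comparisons, lost it in 289 and gained it in 34, and 156 counts or medians of lists moved while 2253 did not. DESeq2 called 7186 genes under HyT36 and limma-voom 7617. Total-count scaling moved the median of all genes from -0.03 to 0.02 and gave 3957 higher and 3537 lower. Same-numbered HyT36 libraries of the clones did not deviate together (r = -0.022, -0.02 and 0.019). With DMSO the same-numbered r were 0.112, -0.071 and 0.162, and those of unlike numbers lay between -0.216 and 0.156. With 3 libraries per group these values cannot exclude pairing, and pairing of HyT36 with DMSO libraries within a clone was not examined. With the replicate block 7420 genes were called under HyT36 (3285 higher, 4135 lower) and 41 changes (17 and 24). At an unadjusted p under 0.05, 1122 genes had a change, no change could be computed from the KRT19-low libraries, which hold no clone 5 DMSO library, and counts under about 1 CPM limit what the low genes can show.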

Other observations

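Genes of autophagy, fatty acid oxidation and the pentose phosphate pathway went both ways under HyT36, beside 24.8% of all autosomal genes higher in clone 5 and 31.3% lower. Of 28 autophagy and lysosome genes 9 were higher (32.1%) and 6 lower (21.4%) in clone 5, with a median of 0.01; the KRT19-low libraries gave 6 and 4. Of 27 fatty acid oxidation genes 8 were higher (29.6%) and 9 lower (33.3%), with a median of 0.01; the KRT19-low libraries gave 5 and 7. Of 16 pentose phosphate and NADPH genes 7 were higher (43.8%) and 4 lower (25.0%), with a median of 0.06; the KRT19-low libraries gave 6 and 4. Within fatty acid oxidation ACADM and ACADVL, dehydrogenases of medium and very long chains, differed by -0.67 and -0.60, and CPT1A, which admits long chains to mitochondria, by 0.36.

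A set of 82 autosomal genes lay under -2 in the clone difference with HyT36 and above 0 with DMSO, of which 9 passed the threshold under HyT36. Its most abundant members included KRT19, IFI27, DUSP4, SCGB2A2, TFF1, MUC1 and KRT7. A second set of 135 genes lay above 0.5 under HyT36 and under -0.8 with DMSO, with 2 past the threshold under HyT36, led by SERPINA1, ALB, ORM1, HP, SAA1, FGA, C3 and FGB, which encode secreted plasma proteins. Both sets were chosen by these differences and are described with no test.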
